A study of Drosophila melanogaster with 4 samples.

Results

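The sex determination genes of Drosophila melanogaster described here are 9 of the 18358 annotated genes: Sxl, tra, tra2, dsx, fru, fl(2)d, vir, snf and ix. Their start-site tag clusters were those whose dominant position lay, on the gene's strand, in the Ensembl gene body or within 100 bp of an annotated transcription start site (TSS). By this rule the 9 genes held 31 of 32731 tag clusters in control and 40 of 57330 in the knockdown. The data come from cap analysis of gene expression (CAGE), in which each tag marks the capped 5' end of an RNA. RNA was taken from testes of males 0 to 2 days old. Control males carried bamGAL4, a driver active in late spermatogonia. Knockdown males carried bamGAL4 and KmgRNAi, which targets kmg, a zinc finger gene of spermatocytes. Both groups came from crosses kept for 3 days at 25 °C, after which the offspring, as eggs or early larvae, went to 29 °C. Each library was made from the pooled RNA of 150 pairs of testes. Each group had 2 libraries, deposited as 1 pooled value, so nothing below has a replicate check and no p-value was computed. Control reads were 76 bp and knockdown reads 150 bp, so that read length and genotype cannot be told apart.

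Sex in the fly soma is set by a cascade of RNA splicing. Sxl is switched on in females by an early promoter, Pe, that reads the number of X chromosomes, and is then transcribed in both sexes from a maintenance promoter, Pm. Only female transcripts of Pm are spliced to full-length protein, which controls the splicing of its own RNA and that of tra. Tra, with Tra2, directs female splicing of dsx and of the fru transcripts from the distal promoter P1, and in males the default splicing yields the male proteins. In the gonad, dsx acts in somatic cells, and tra2 is also needed in male germ cells for sperm formation. CAGE reads where transcripts start and not how they are spliced, so the male or female form of an RNA was not measured.

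Levels are in TPM, tags per 1000000 tags in the clusters of the group. CAGE counts a tag per RNA end, so levels of genes can be compared without a length correction. The pooled totals were 56519714 tags in control and 34975246 in the knockdown. Counting intervals are 95% intervals and cover counting error only. The tables list a start that stands at a single position only from 50 tags, so levels, shares, ratios and their intervals are of listed tags and do not cover unlisted ones, and 0 means that none was listed. The targeted gene kmg had 48.5 TPM in control and 12.7 in the knockdown, of which 1.72 and 0.0858 TPM lay at its annotated TSSs; its log2 ratio was -1.86, and -2.50 after the rescaling described next. Over the 25902 consensus clusters called in both groups, the log2 of knockdown over control had a median of 0.71. Changes are therefore also given after rescaling the knockdown by this shift, 1.64-fold. The shift mixes clusters at and off annotated TSSs. With 1 TPM added to each level, the median log2 ratio over all tested clusters was -0.03 at annotated TSSs. For those off TSSs on a gene's strand it was 1.74. Whether the shift is one of scale was not tested, so rescaled values are a second reading and not a correction. In bulk testes, fewer cells of a type and less RNA per cell cannot be told apart. The testis markers were present in both groups, and the 2 matched early germline markers, vas and bam, summed to 35.3 and 85.7 TPM, with bam up by the 4-fold rule given below. That call was lost after rescaling, at 1.39, and at annotated TSSs bam had 3.79 TPM in control and 0 in the knockdown, and vas 29.7 and 19.4 TPM. Summed over 5 spermatocyte markers the level was 1385 TPM in control and 1661 in the knockdown, of which Mst77F alone held 1291 and 1531 TPM. Of the others, aly had 8.83 and 14.9 TPM, sa 43.9 and 73.9 TPM and topi 28.5 and 34.9 TPM. Only can was lower in the knockdown, at 13.4 and 7.03 TPM. The 3 cyst cell markers, for the somatic cells that enclose the germline, summed to 33.5 and 35.3 TPM. Among them tj, at 4.37 and 3.00 TPM, and eya, at 23.0 and 20.2 TPM, were lower in the knockdown. The third, zfh1, was higher, at 6.07 and 12.2 TPM. The 2 hub markers summed to 122 and 85.6 TPM, of which Fas3 held 118 and 82.1 TPM. At annotated TSSs Fas3 had 82.9 TPM in control and 5.58 in the knockdown, and upd1 2.26 and 3.46 TPM. Markers of other tissues and cell types differed. The 3 accessory gland markers fell from 128 to 4.26 TPM in sum, with Acp26Aa listed at 0 in the knockdown, and the 3 muscle markers summed to 429 and 154 TPM. The 4 neuron markers summed to 69.5 and 91.6 TPM, with 3 called up and nSyb down, and elav at 0 in control. The 3 called up, elav, brp and Syt1, had 0 TPM listed at annotated TSSs in both groups. There nSyb had 65.8 TPM in control and 2.14 in the knockdown. The 3 fat body markers summed to 0.902 and 5.38 TPM, with Lsp2 at 0 in control and Yp1 at 0 in both groups. Their part in the results below was not tested.

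None of the sex determination genes changed 4-fold in its summed level. A gene was tested if it reached 1 TPM in either group, which 8 of the 9 did; ix did not. Changes are log2((knockdown + 1) / (control + 1)) of TPM, so that those of genes with few tags are understated, and a gene was called at 2 or above or at -2 or below. Of the 8 tested genes 0 were called up and 0 down. Over all 12864 genes tested, 21.3% were called up and 5.42% down. The median log2 ratio of the 8 genes was 0.58, against 0.67 over all genes tested, and 4 of the 8 lay above that median. After rescaling these medians were -0.11 and 0.01. The 8 genes thus lay on both sides of the typical gene.

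**Figure D1:**
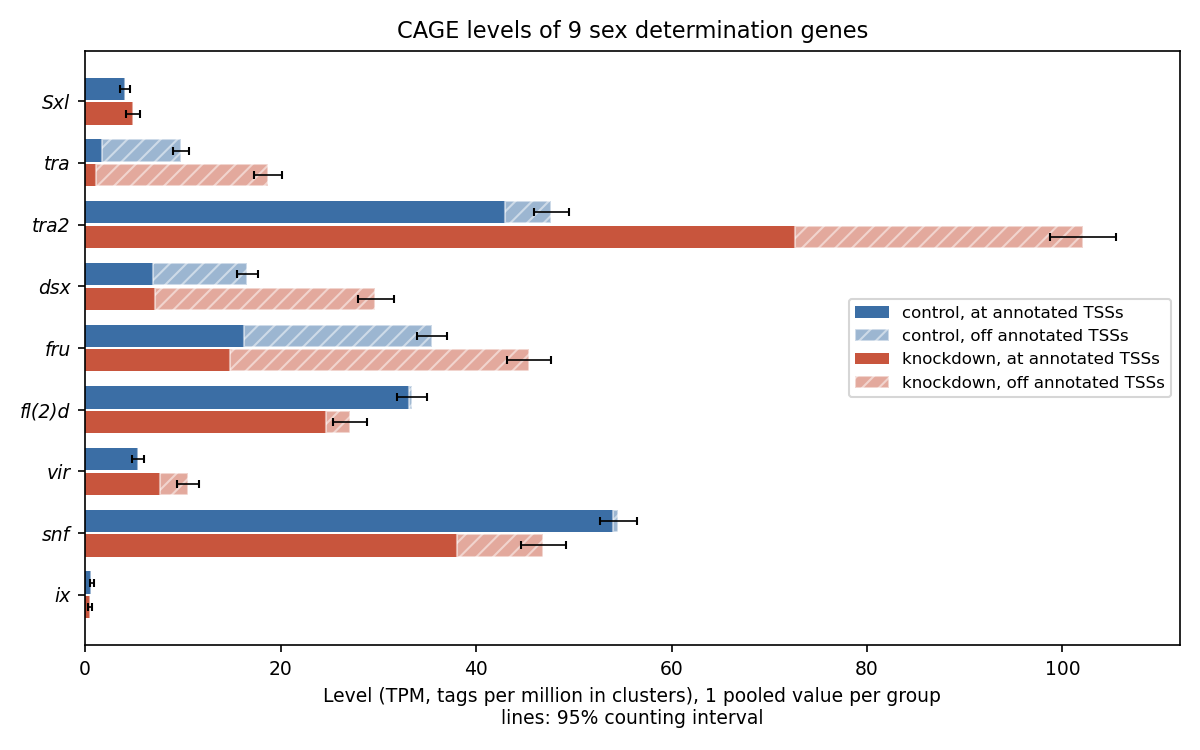
Levels of the 9 genes in TPM (x axis), 1 pooled value per group, split into tags at annotated TSSs (solid) and off them (hatched); black lines are 95% counting intervals of the total. The largest level is tra2 in the knockdown, 102 TPM, and the hatched part is longer in the knockdown in 7 of the genes and 0 in both groups in Sxl and ix.

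In control the order of levels was snf, tra2, fru, fl(2)d, dsx, tra, vir, Sxl and ix. The neighbours fru, at 35.5 TPM, and fl(2)d, at 33.4 TPM, had overlapping counting intervals, 34.0 to 37.1 and 31.9 to 35.0. In the knockdown tra2 came first. There snf, at 46.9 TPM (44.6 to 49.2), and fru, at 45.4 TPM (43.2 to 47.7), overlapped, and so did dsx, at 29.7 TPM (27.9 to 31.6), and fl(2)d, at 27.1 TPM (25.4 to 28.9). With pooled values the spread between libraries is unknown, so these intervals are a lower limit on the error of the order.

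Sxl (FBgn0264270, chromosome X from 7074550 to 7098053, minus strand), the RNA-binding switch gene of the cascade, had listed tags at a single promoter. It stood at 4.03 TPM in control, from 228 tags, and at 4.86 TPM in the knockdown, from 170 tags. The ratio of 1.20 had a counting interval of 0.982 to 1.48, so the groups did not differ beyond counting error. The log2 ratio was 0.22, and it turned to -0.35 after rescaling. The annotation gives Sxl 25 transcripts from 4 separate TSSs. All listed Sxl tags of both groups lay in a cluster from 7098043 to 7098053 whose dominant position, 7098053, is exactly the most distal TSS, the start of 18 transcripts and the position of Pm. That makes 100% of the listed tags in both groups. Single positions of fewer than 50 tags at another promoter would not be seen, beside these 228 and 170 tags.

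No cluster was listed in either group at the other 3 Sxl TSSs. These are 285, 987 and 5170 bp downstream of the distal TSS. The last, the start of 4 transcripts, lies where the early promoter Pe is known. No cluster was listed inside the Sxl gene body away from its TSSs, on either strand. The Pm cluster was narrow, with 4 positions, and its dominant position took 74.6% of the tags in control and 77.6% in the knockdown.

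**Figure D2:**
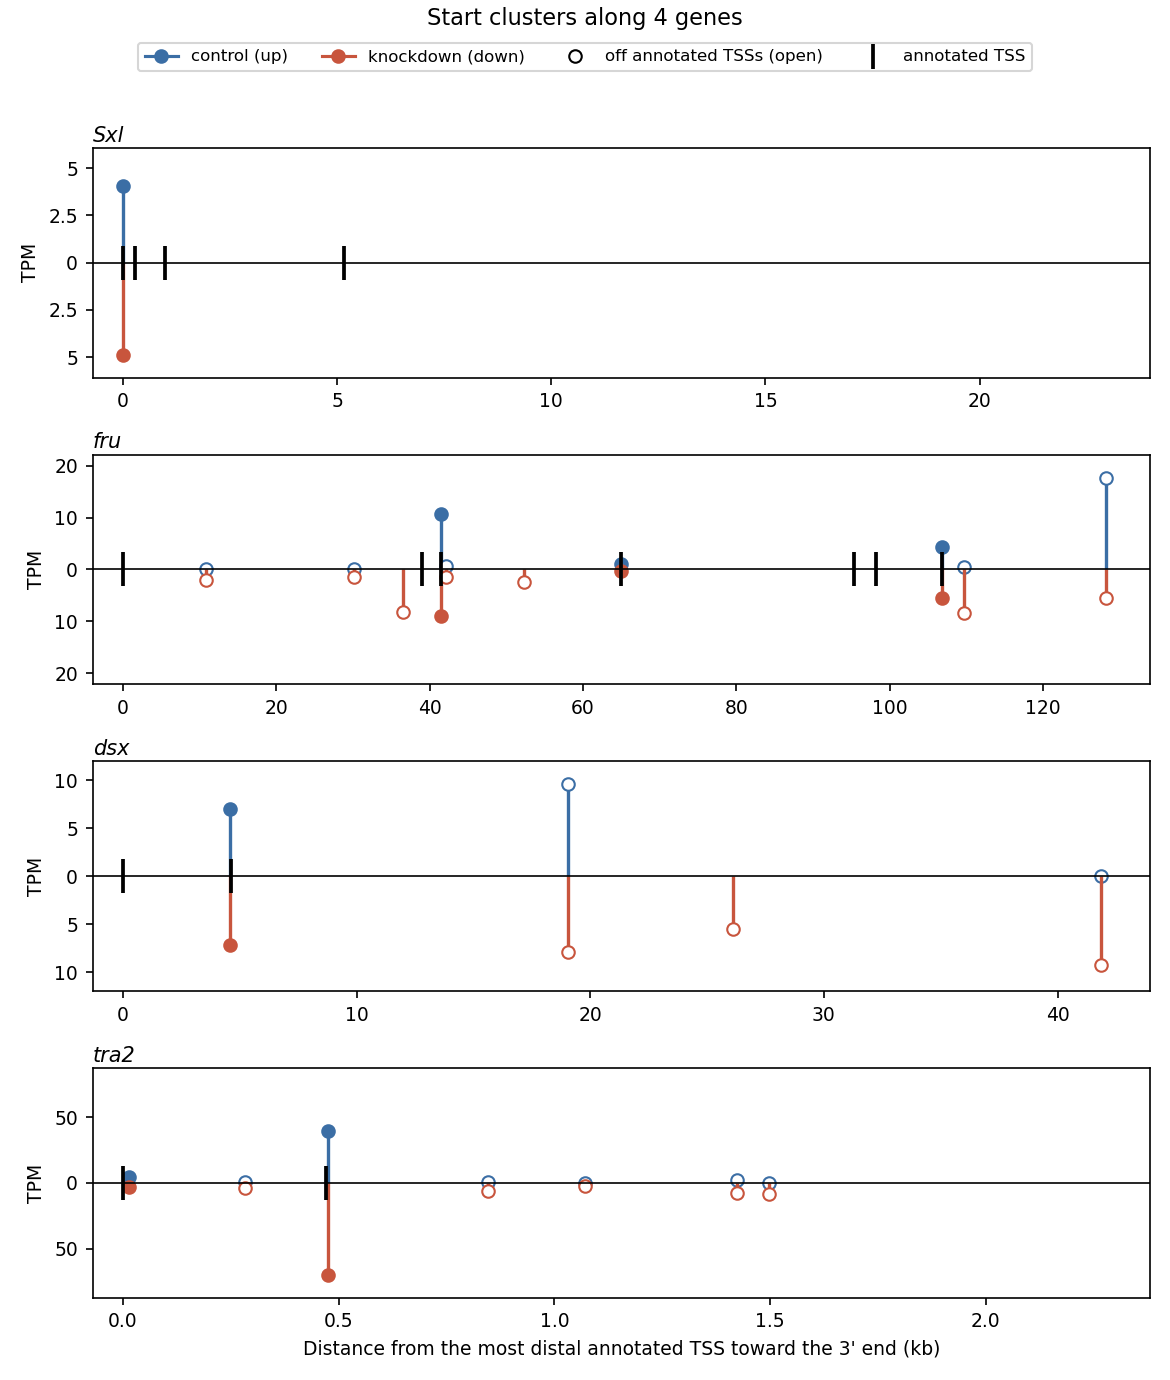
Consensus clusters of Sxl, fru, dsx and tra2 by distance from the most distal annotated TSS (x axis, kb) and level (y axis, TPM), control upward and knockdown downward; filled points are at annotated TSSs, open points off them, and black ticks are annotated TSSs. Sxl has a point at 0 kb alone, the distal TSSs of fru and dsx have none, and the points above 5 TPM in the knockdown and near 0 in control are open.

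fru (FBgn0004652, chromosome 3R from 18414273 to 18545586, minus strand) encodes BTB zinc finger transcription factors, and its P1 products specify male courtship. It stood at 35.5 TPM in control, from 2006 tags, and at 45.4 TPM in the knockdown, from 1588 tags, a ratio of 1.28 (counting interval 1.20 to 1.37). The log2 ratio was 0.35 and turned to -0.35 after rescaling. Of 7 annotated fru promoters, 3 had a cluster, the same in both groups, and 4 had none. The most distal TSS, at 18545586, is the start of 8 of the 15 transcripts and the position of P1. No cluster was listed there in either group.

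The fru promoter with the highest level was the TSS of 1 transcript at 18504066, 41.5 kb downstream of the distal TSS. Its cluster held 10.8 TPM in control and 8.95 in the knockdown, 66.5% and 60.3% of the fru tags at annotated TSSs. The next was the most proximal promoter, at 18438771 and 106.8 kb downstream, with 4.39 and 5.52 TPM, or 27.0% (24.3 to 30.0) and 37.2% (33.1 to 41.4). The third, at 18480676, had 1.04 TPM in control from 59 tags and 0.372 TPM in the knockdown from 13 tags. Among fru tags at annotated TSSs, the share of the most proximal promoter was thus higher in the knockdown, and its counting intervals did not overlap. Of all fru tags that promoter took 12.4% in control and 12.2% in the knockdown, with overlapping intervals. Its knockdown dominant position lay 25 bp from the TSS, so a 20 bp window leaves it out there. The intervals leave out the spread between libraries, so a difference between the groups was not tested. The promoters without a cluster besides P1 were those at 18506562, 18450254 and 18447329.

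More of the fru tags lay off annotated TSSs than at them. Annotated TSSs held 45.7% of the tags in control (Wilson interval 43.5 to 47.9) and 32.7% in the knockdown (30.4 to 35.0). The strongest fru cluster in control lay in an intron from 18417327 to 18417436, with 17.7 TPM, and was at 5.46 TPM in the knockdown. The log2 ratio was -1.54. This missed the 4-fold rule, and passed it at -2.11 after rescaling. Its dominant start is 66 bp upstream of an exon that is the last exon of 2 transcripts.

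Other intronic fru clusters were higher in the knockdown. The cluster from 18435842 to 18435906 rose from 0.531 to 8.46 TPM (ratio 15.9, interval 10.9 to 24.1). It lies 57 bp upstream of an exon present in all 15 transcripts. The cluster from 18509052 to 18509131 had 0 listed control tags and 8.15 TPM in the knockdown. It lies 2490 bp upstream of the annotated TSS at 18506562. The cluster from 18515381 to 18515433, which is 38 bp upstream of an exon shared by the 8 transcripts of P1, had 2 control tags and 50 knockdown tags, and did not pass the rule.

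dsx (FBgn0000504, chromosome 3R from 7924323 to 7967408, minus strand), the transcription factor at the end of the cascade, had no listed cluster at its distal promoter. It stood at 16.6 TPM in control and 29.7 in the knockdown, a ratio of 1.79 (1.64 to 1.96). The log2 ratio was 0.80, and 0.12 after rescaling. The distal TSS at 7967408, the start of 5 of the 7 transcripts, had no cluster in either group. The TSS at 7962786, 4.6 kb downstream and the start of 2 transcripts, had 6.97 TPM in control and 7.15 in the knockdown, a ratio of 1.03 (0.872 to 1.21). This start was sharp, with an interquantile width of 1 bp in both groups and 86.0% and 88.8% of its tags at 1 position.

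A pair of intronic starts of dsx was higher in the knockdown, while the strongest intronic start of control was lower. A cluster from 7925544 to 7925563, 184 bp upstream of an exon that is the last exon of 3 transcripts, went from 3 control tags to 322 knockdown tags, or from 0.0531 to 9.21 TPM. The ratio was 173, with a counting interval of 58.8 to 845. Another, from 7941293 to 7941366, had 0 listed control tags and 5.52 TPM in the knockdown. The strongest dsx cluster of control, from 7948339 to 7948388 and 14.4 kb from the nearest annotated TSS, was at 9.55 and 7.83 TPM.

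tra2 (FBgn0003742, chromosome 2R from 14602004 to 14604337, minus strand), the RNA-binding partner of Tra, had the highest level of the genes in the knockdown. It went from 47.7 TPM (2694 tags) to 102 TPM (3570 tags), a ratio of 2.14 (2.04 to 2.25). The log2 ratio of 1.08 made it the only one of the 8 genes past a 2-fold rule, which 41.7% of all genes tested passed upward. After rescaling it was 0.38. Both tra2 promoters were used. The proximal TSS at 14603866, the start of 2 of 7 transcripts, held 38.4 TPM in control and 69.6 in the knockdown. The distal TSS at 14604337, the start of 5 transcripts, held 4.60 and 3.00 TPM. The proximal promoter thus took 89.3% of the tags at TSSs in control and 95.9% in the knockdown. Of all tra2 tags it took 80.5% in control and 68.2% in the knockdown. Its knockdown cluster is wider, at 162 bp between quantile positions against 14 bp, and also spans positions that form a separate control cluster of 37 tags. The dominant position, the same in both groups, held 63.9% of the cluster's tags in control (1387 tags) and 41.5% in the knockdown (1010 tags). More of the knockdown level than of the control level thus lay away from that position.

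Starts inside tra2 were higher in the knockdown. A coding-exon cluster from 14602831 to 14602854 rose from 0.301 to 8.72 TPM (ratio 29.0, interval 17.8 to 50.4), and a 5' UTR cluster from 14603484 to 14603531 rose from 0.389 to 5.92 TPM. The call of the 5' UTR cluster was lost after rescaling, at 1.73. An intronic cluster from 14602895 to 14602975 was at 2.30 and 7.38 TPM and did not pass the rule.

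tra (FBgn0003741, chromosome 3L from 16590059 to 16591050, minus strand) encodes the female splicing factor. It stood at 9.77 TPM in control, from 552 tags, and at 18.7 TPM in the knockdown, from 654 tags. The ratio was 1.91 (1.71 to 2.15), with a log2 ratio of 0.87, and 0.20 after rescaling. Its single annotated TSS held few of its tags, 17.8% in control (14.8 to 21.2) and 5.96% in the knockdown (4.39 to 8.05), at 1.73 and 1.12 TPM. The strongest cluster of control was in a coding exon from 16590876 to 16590929, 170 bp downstream of the TSS, at 7.50 and 5.38 TPM. A pair of coding-exon clusters nearer the 3' end rose. The first, from 16590447 to 16590507, went from 0.283 to 6.78 TPM (ratio 23.9, interval 14.4 to 42.6), and the second, from 16590565 to 16590591, from 0.248 to 4.49 TPM (ratio 18.1, interval 10.5 to 33.9). Both calls were lost after rescaling, at 2.00 (just under the threshold) and 1.58. The direction of tra depends on what is counted. At its annotated TSS alone the log2 ratio was -0.37.

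The cofactors of Sxl splicing started almost wholly at their annotated TSSs in control. snf (FBgn0003449, chromosome X from 5309242 to 5310501, plus strand), a protein of the U1 and U2 spliceosomal particles, stood at 54.5 and 46.9 TPM, a ratio of 0.860 (0.809 to 0.913). Its TSS cluster held 54.1 TPM in control and 38.1 in the knockdown, and a coding-exon cluster from 5310130 to 5310220 rose from 0.495 to 8.01 TPM (ratio 16.2, interval 10.9 to 24.8). That call was lost after rescaling, at 1.98. fl(2)d (FBgn0000662, chromosome 2R from 13819624 to 13824553, minus strand) and vir (FBgn0003977, chromosome 2R from 23360192 to 23366355, minus strand) encode subunits of the complex that writes m6A on RNA. fl(2)d stood at 33.4 and 27.1 TPM, a ratio of 0.810 (0.749 to 0.876), with 99.3% of tags at its TSS in control and 90.9% in the knockdown. vir was at 5.38 and 10.5 TPM, a ratio of 1.95 (1.67 to 2.28), with 100% and 73.3% at its TSS. After rescaling the log2 ratios were -0.91 for snf, -0.98 for fl(2)d and 0.21 for vir.

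ix (FBgn0001276, chromosome 2R from 11359437 to 11360163, minus strand), a Mediator subunit that works with the female Dsx protein, was close to the limit of detection. It had 37 tags in control and 16 in the knockdown, 0.655 and 0.457 TPM, all in a cluster at its TSS. The ratio of 0.699 had an interval of 0.363 to 1.29. A stronger cluster just outside the rule, 98 bp past the 3' end of ix, held 5.89 TPM in control and 1.20 in the knockdown and is not counted here. Among member clusters counted as at an annotated TSS, the farthest dominant position was that of snf in the knockdown. It lay 74 bp from the TSS, inside the gene body. The tra cluster 170 bp from its TSS was also counted through the gene body.

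The share of tags at annotated TSSs was lower in the knockdown for 7 of the 8 tested genes and equal, at 100%, for Sxl. Among the 10188 genes with at least 1 TPM in both groups, 64.0% had a lower share in the knockdown. The median share over those genes was 99.2% in control and 79.1% in the knockdown. For snf the share was 99.1% and 81.2%, and for tra2 90.2% and 71.2%. Summed over the 9 genes, tags at annotated TSSs stood at 165 TPM in control and 171 in the knockdown, a ratio of 1.04 where all genes gave 0.760. Without tra2 the other 8 genes summed to 122 and 98.8 TPM, a ratio of 0.808. Tags off annotated TSSs stood at 42.3 and 114 TPM, against 69699 and 205958 TPM over all genes, a ratio of 2.95. With pooled values the difference from other genes was not tested.

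**Figure D3:**
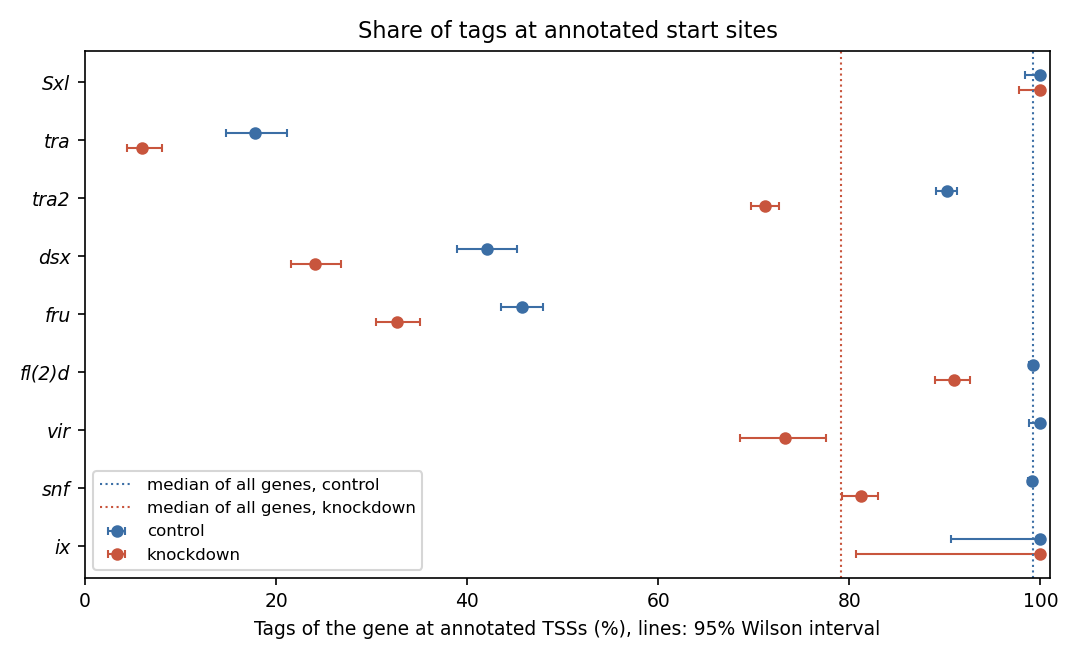
Share of each gene's tags at annotated TSSs (x axis, percent) in control and knockdown, with 95% Wilson intervals; dotted lines are the medians of all genes with at least 1 TPM in both groups. The knockdown point lies to the left of the control point in 7 genes, and tra, dsx and fru lie below 50% in both groups.

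Counted by cluster, the changes were all off annotated TSSs. The genes held 32 consensus clusters, the start regions listed over both groups, all with at least 1 TPM in either group. Of these, 9 were gained by the 4-fold rule, 28.1%, and 0 were lost. Among all tested consensus clusters sense to a gene, 27.9% were gained and 4.34% lost. Of the 11 clusters at annotated TSSs 0 were gained and 0 lost, where 7.68% and 8.2% of all clusters at annotated TSSs were. Of the 21 off annotated TSSs 9 were gained and 0 lost, against 41.3% and 1.78% of all such clusters. The 9 lay in 5 genes, tra, tra2, dsx, fru and snf, with 4 in coding exons, 4 in introns and 1 in a 5' UTR. The share gained off annotated TSSs, 42.9%, is close to that of all genes. The split by annotated TSSs was chosen after seeing the data. On the opposite strand the genes held 7 tested clusters, of which 3 were gained and 0 lost, where 47.5% and 1.24% of all antisense clusters were.

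**Figure D4:**
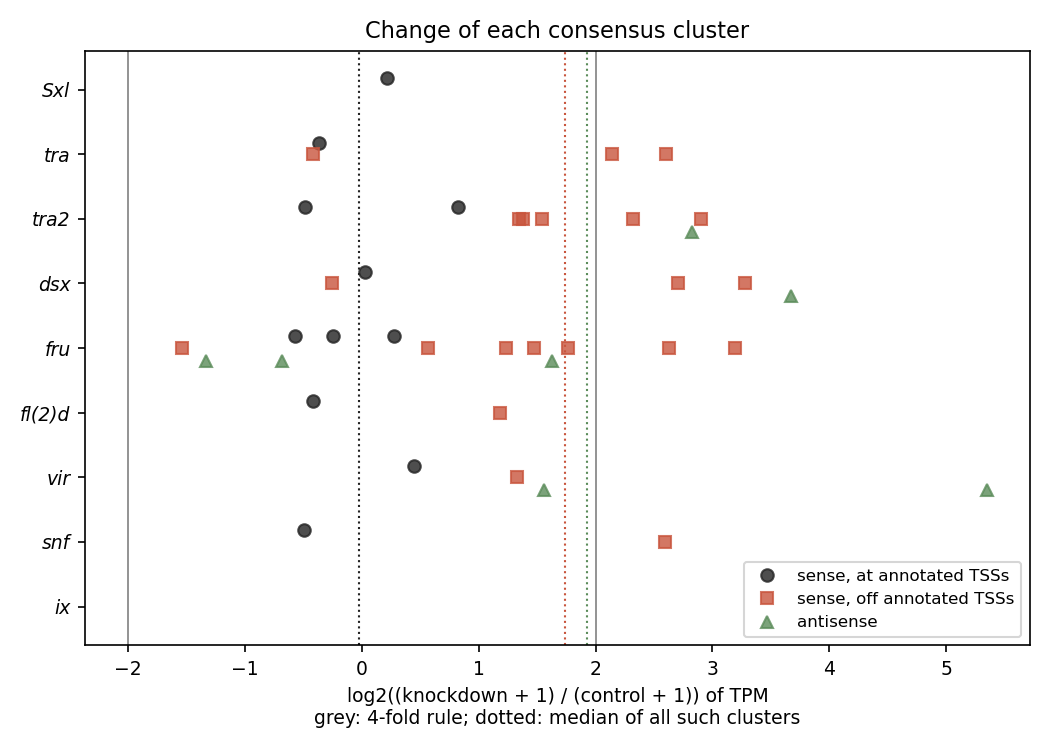
Change of every consensus cluster of the genes, as log2((knockdown + 1) / (control + 1)) of TPM (x axis), by gene; circles are at annotated TSSs, squares off them, triangles on the opposite strand. Circles lie between -0.58 and 0.82, inside the grey lines of the 4-fold rule, while 9 squares and 3 triangles lie past 2; dotted lines are the medians of all such clusters, -0.03 at TSSs, 1.74 off them and 1.93 antisense.

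In these genes most dominant positions at annotated TSSs were the same in both groups. Of the 11 clusters at annotated TSSs, 7 kept the same dominant position and 4 moved by more than 10 bp. These were vir, by 64 bp, snf, by 40 bp, and a pair of fru promoters, by 37 and 17 bp. The share over all clusters at annotated TSSs was not counted, so no difference from other genes can be read from this. Of 12 intronic clusters of these genes in the consensus list, 5 began within 200 bp upstream of an exon of the gene, 3 of them in fru, 1 in dsx and 1 in tra2. The share over all intronic clusters was not counted either, so this is not shown to be particular to these genes.

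Other genes of the cascade were taken from lists of 42 genes, of which 41 matched the annotation and 33 were tested. Of these, 8 were called up and 0 down. That is 24.2% up, near the 21.3% of all genes, and 5 stayed up after rescaling. The 8 that rose had most of their knockdown tags off annotated TSSs, except da. The helix-loop-helix gene da, an activator of early Sxl, rose from 30.3 to 131 TPM, with 124 TPM at TSSs. Of 11 genes for Sxl splicing, the m6A writer and the U1 and U2 particles, 2 rose, nito from 6.28 to 29.7 TPM and Hakai from 5.10 to 31.5 TPM. These 3 calls were lost after rescaling. The gene msl-2, whose translation Sxl represses in females, rose from 1.98 to 27.8 TPM, with 1.26 TPM at its TSSs in the knockdown.

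Among 5 tested targets and relatives of dsx, 2 rose. Lgr3, a receptor gene regulated by Dsx in neurons, went from 4 tags to 25.8 TPM, and the DMRT family gene dmrt93B from 0 listed tags to 5.38 TPM, both off annotated TSSs. The yolk protein genes Yp1 and Yp2, female targets of dsx, had no listed tags in either group, and Yp3 had 0.195 and 1.43 TPM. In the fru group dsf, a nuclear receptor gene of sexual behaviour, rose from 2.23 to 22.7 TPM. Of 3 tested gonad genes 1 rose, otu, a gene of female germ cells, with 3 tags in control and 10.2 TPM in the knockdown (ratio 192, interval 65.3 to 937), while Phf7, a reader of male germline identity, was at 15.4 and 20.2 TPM and chinmo, which maintains male identity of cyst cells, at 108 and 106 TPM.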

How the data were processed

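Start clusters were deposited as 1 table per group and a consensus list. Per the submitters' processing notes, which assign no roles, the tools included STAR 2.7.11b, Trim Galore 0.6.6 and bedtools, with builds dm6 and BDGP6. No source used here names the cluster caller. Each table's tag column, called TPM per the file headers, holds deposited whole-number raw tag counts, pooled over both libraries of a group, and was scaled here to 1000000 tags per table. Cluster width was used as deposited by the authors. Dominant positions were placed on Ensembl release 115 (dm6 coordinates) with Python 3.11.15 and pandas 2.3.3. Annotated TSSs over 200 bp apart were separate promoters. Ratios have exact binomial intervals, shares Wilson intervals and levels exact Poisson intervals (scipy 1.17.1). A gene's level is the sum over its clusters. The members and lists were chosen with earlier results of these data known. All 9 members were named, with clusters of at least 5 TPM, every TSS of Sxl and fru, and pathway genes past the 4-fold rule; other clusters and genes were named after their values were seen. Symbols were matched exactly; nos and Tdrd5l did not match. The assignment and the rule were tested on simulated data. Of the members' tag clusters, 10 of at most 45 tags lay outside the consensus list and entered gene levels alone. Sequence was not analysed here.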

Additional observations from a re-analysis of the deposited data

Results flagged for a closer look

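Clusters on the strand opposite to these genes were not part of the comparisons of levels, and 3 of the 7 tested were gained by the 4-fold rule, where 47.5% of all tested clusters antisense to a gene were. The antisense cluster in the first part of vir, on chromosome 2R from 23365899 to 23366028, rose from 12 tags (0.212 TPM) to 48.3 TPM, a ratio of 228 (counting interval 130 to 442). It is stronger than the sense TSS cluster of vir in the knockdown, 7.69 TPM, and the next annotated TSS on its strand, that of Ice1, lies 898 bp downstream. The antisense cluster in tra2, on 2R from 14603878 to 14604051, rose from 4.72 to 39.5 TPM, a ratio of 8.35 (7.32 to 9.56), with its dominant start 106 bp from the proximal TSS of tra2. The antisense cluster in dsx, on 3R from 7929186 to 7929271, had 0 listed control tags and 11.7 TPM in the knockdown. All 3 passed the rule after rescaling, at 4.65, 2.13 and 3.03.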

How the results depend on the processing

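No paired analysis was possible because each group was deposited as 1 pooled value, and for the same reason no library could be left out. The counts of genes past the rule, 0 up and 0 down, stayed at 0 with pseudocounts of 0.5 and 3 TPM, after rescaling, without the filter, at annotated TSSs alone, with clusters in 1 gene alone and with the strongest cluster alone; under a 2-fold rule 1 gene, tra2, rose. Gained clusters numbered 9, and 12 with a pseudocount of 0.5 TPM, 0 with 3 TPM, 5 after rescaling and 17 under a 2-fold rule, with 0 at annotated TSSs alone. Lost clusters numbered 0, and 1 after rescaling and 1 under the 2-fold rule, in both cases the fru cluster at 18417327. A TSS window of 20 bp gave fru shares of 42.8% in control and 19.7% in the knockdown, since dominant positions 25 and 54 bp from a TSS then fell outside; 500 bp changed neither, and Sxl stayed at 100%. Of 54 recomputed log2 ratios 7 changed sign, those of Sxl and fru after rescaling, of tra and fru at TSSs alone, and of tra, dsx and fru with the strongest cluster alone; none of the 54 reached 4-fold.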
